A study of Gallus gallus with 88 samples.

Results

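The chemokine CXCL12 and its receptors CXCR4 and CXCR7 were examined in the hind muscle (M. gastrocnemius) of broiler embryos and of chickens at day 35 after hatch (D35) that had experienced a modified incubation temperature. The array's annotation was searched for the 3 genes, and each was represented by 1 probe set. CXCR7 (probe set 15535278, Entrez gene 428997, now also named ACKR3), CXCR4 (15537890, gene 395324) and CXCL12 (15529885, gene 395180, also named SDF1) were thus 3 of 20706 probe sets analysed. The genes were selected on values of these arrays, in which CXCR7 passed the threshold (adjusted p under 0.05) in L13 compared with control chickens at D35 and in H13 compared with H10 embryos. These differences, and all others of CXCR7 that share a group with them (those with the D35 controls or D35 L13 and those of the H10 or H13 embryos), are therefore given as a description without a test. CXCL12 and CXCR4 were taken as the partners of CXCR7, and their differences were tested.

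CXCL12 is a secreted chemokine that attracts cells along its gradient. CXCR4 is the receptor that carries the signal into the cell through inhibitory G proteins. CXCR7 binds the same ligand but does not couple to G proteins in the classical way, and it takes CXCL12 up and removes it from the surroundings. In vertebrate embryos the system guides migrating cells, among them muscle precursors entering the limb, and it takes part in the growth of blood vessels. Hypoxia-inducible factors are known activators of the genes for the ligand and CXCR4.

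All animals came from a commercial Cobb broiler line, and 88 arrays were made, each from 1 animal. Eggs were kept at 38.8 °C (H), 36.8 °C (L) or 37.8 °C (C) during embryonic days (ED) 7–10 or ED10–13, and otherwise at 37.8 °C until shortly before hatch. Embryos of H10, L10 and C10 (window ED7–10) were sampled at ED10 and embryos of H13, L13 and C13 (window ED10–13) at ED13, with 8 embryos in each group. At D35 the groups were L13, L10, H13, H10 and control with 8 chickens each, and the control group joined 2 chickens labelled C10 and 6 labelled C13, all without a change in either window. The H windows also had a higher relative humidity, so that temperature and humidity cannot be told apart in the H groups. Equal numbers of both sexes were planned, but the labels give no sex per animal. In embryos, C13 differed from C10 in age, and both were without a change in either window. H13 and H10, and likewise L13 and L10, differed in age as well as in the window.

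Values were deposited on a log2 scale, with array medians of 7.90 to 8.29 in embryos and 6.64 to 6.98 at D35, and the stages were not compared with each other. The animal numbers in the labels formed 2 number series. All H animals lay in series 1 and all L animals in series 2, and each control group had 4 animals in each. For the D35 chickens the series were read from the numbers in the order of the deposit, and the sources used here do not say what sets the series apart. Between the controls of series 1 and series 2, 57 probe sets differed at D35, 42 at ED13 and 0 at ED10 (limma, adjusted p under 0.05). For CXCR7, CXCL12 and CXCR4, each comparison of a treated group with controls is therefore also given against the controls of its own series. The genes of the lists and the cell type markers were compared only with the controls of both series together. Of 8 measured skeletal muscle markers, 7 had a mean signal above that of 95% of the 23 probe sets that serve as background controls, at both stages. Of 10 skin and feather markers, 2 lay above it in embryos and 0 at D35.

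CXCR7 lay above this limit, the 95th percentile of the background controls, which was 9.71 in embryos and 9.49 at D35, on all 48 embryo arrays and all 40 D35 arrays. CXCL12 exceeded it on all 48 embryo arrays but on only 1 of 40 arrays at D35, where all 40 were above the median of the background controls (5.33). CXCR4 exceeded it on 0 arrays at either stage. It was above the background median (5.61) on all 48 embryo arrays, and above that of D35 on 6 of 40 arrays. No fold change is therefore given for CXCR4, nor for CXCL12 at D35, and their log2 differences describe a dim signal.

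At D35, CXCR7 was highest in the chickens that had been cooled during ED10–13. In L13 its log2 signal ranged between 10.65 and 11.43 with a median of 10.95, against 9.57 to 10.91 with a median of 10.10 in controls. All 8 L13 chickens were above the control mean and 4 were above the highest control. The groups overlapped through control replicate 70, at 10.91. The mean was 10.998 ± 0.28 in L13 and 10.09 ± 0.43 in controls (SD, n = 8 each), a log2 difference of 0.91 (SE 0.17) or 1.88-fold. CXCR7 was the last of 3 probe sets that passed the threshold in this comparison, all of them higher (0.0145% of those tested). The others were CMSS1 (log2 difference 1.07) and a probe set without a gene symbol (0.73). Just outside the threshold were another probe set without a symbol (0.68), ACTG2 (-0.49), DLG1 (0.48) and FABP3 (1.26).

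**Figure D1:**
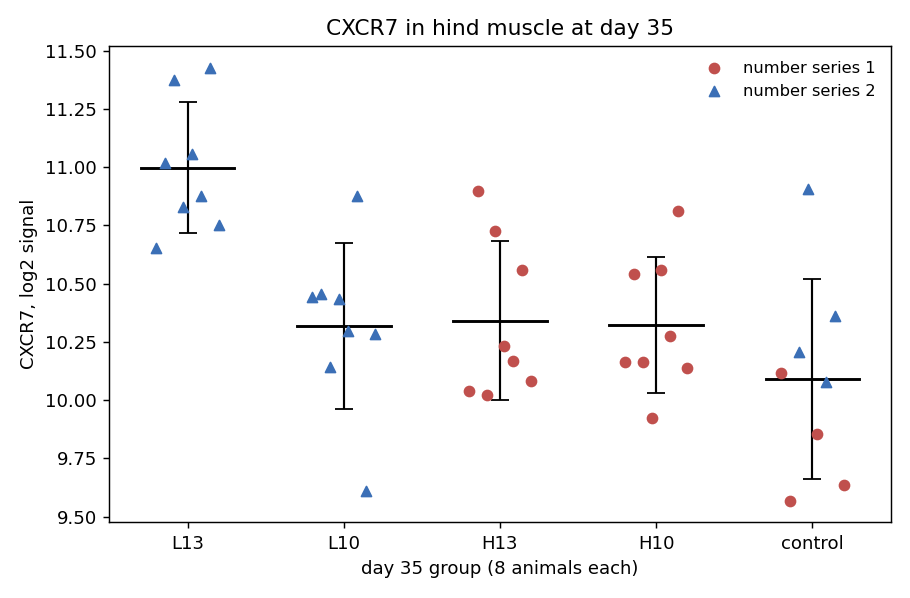
CXCR7 log2 signal (y axis) of each of the 8 chickens in the 5 D35 groups (x axis). Points are single animals, circles for number series 1 and triangles for number series 2, and bars give the mean ± SD. The 8 L13 chickens lie between 10.65 and 11.43, and the 4 controls of series 1 lie at or below 10.12.

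The other D35 groups lay close together between L13 and the controls. CXCR7 ranged between 9.61 and 10.88 in L10 (median 10.37), between 10.02 and 10.90 in H13 (median 10.20) and between 9.93 and 10.81 in H10 (median 10.22). Their means were 10.32 ± 0.36 in L10, 10.34 ± 0.34 in H13 and 10.32 ± 0.29 in H10. The order of the means was L13, H13, H10, L10 and control, and the 3 groups in the middle lay within 0.03 of each other, far less than their SDs. Compared with controls, the log2 difference was 0.23 in L10, 0.25 in H13 and 0.23 in H10 (SE 0.17 each). Over all probe sets, 0.00483% passed in H13 minus control, all higher, and 0 passed in L10 and H10 minus control, where 1302 and 586 had an unadjusted p under 0.05. Each of these groups shares the 8 control arrays with the others and with the L13 comparison, and these differences are a description.

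The 2 cooled groups differed in the window alone. L10 was lower than L13 by a log2 difference of -0.68 (SE 0.17), and 7 of 8 L10 chickens were below the lowest L13 chicken. This rests on the same L13 arrays that chose CXCR7 and is a description. H10 and H13, which also differed in the window alone, had a log2 difference of -0.02 (95% CI -0.36 to 0.33, adjusted p = 1), where 0.00483% of all probe sets passed, all lower.

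The 8 control values of CXCR7 were spread along the number series. The 4 controls of series 1 had 9.57, 9.63, 9.86 and 10.12, and the 4 of series 2 had 10.08, 10.21, 10.36 and 10.91. The 2 lowest were the 2 controls labelled C10. The difference of series 1 minus series 2 was -0.59 (SE 0.22), the means being 9.79 and 10.39. The same control arrays took part in choosing CXCR7, and this difference is a description too.

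Compared only with controls of their own series, the picture of the D35 groups was different. L13 exceeded its 4 controls by 0.61 (1.53-fold), and all 8 L13 chickens were above the mean of these controls, 3 of which were below the lowest L13 chicken. L10 then differed from its controls by -0.07, H13 by 0.55 and H10 by 0.53 (SE 0.19 each). These control arrays were also used in the comparison that chose CXCR7, and no test is given. All 8 chickens of both H groups were above the mean of their series 1 controls, and 5 of H13 and 7 of H10 were above the highest of them. The L13 difference thus ranged between 0.61 and 0.91 with the controls used, and the H differences were more than 1.5 times as large within the series as over all controls.

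The place of CXCR7 past the threshold in L13 depended on single chickens. It stayed past the threshold under 6 of 9 other settings, the exceptions being the fit on the 2 groups alone and both settings that used the number series. With single chickens left out it stayed past in 5 of 16 fits, and it was lost without any 1 of the control replicates 29, 30, 68, 77, 81 and 90 or of the L13 chickens at 10.88, 11.02, 11.06, 11.38 and 11.43. The difference itself ranged between 0.83 without control replicate 30 and 1.02 without control replicate 70.

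In embryos, CXCR7 varied little between the groups except in H10. H10 embryos had the lowest mean, 11.56 ± 0.24, against 11.70 ± 0.11 in C10 embryos (SD, n = 8 each). Their values ranged between 11.28 and 11.88 (median 11.47), against 11.51 to 11.83 (median 11.71) in C10. In H10, 4 embryos were below the lowest C10 embryo and 2 were above the highest, so that the spread was wider as well. The log2 difference was -0.14 (SE 0.07), given as a description because the same H10 arrays took part in choosing CXCR7, and 27 of 20706 probe sets (0.130%) passed in this comparison, 0.0676% higher and 0.0628% lower, without CXCR7. Against the C10 controls of the same series the difference was -0.16 (SE 0.08).

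Cooled embryos of the same age had CXCR7 at 11.74 ± 0.14 in L10 and 11.70 ± 0.11 in C10 embryos, a log2 difference of 0.04 (95% CI -0.10 to 0.18, adjusted p = 0.972). In the later window, CXCR7 was 11.81 ± 0.04 in H13 and 11.80 ± 0.10 in C13 embryos (difference 0.01, SE 0.07). It was 11.73 ± 0.07 in L13 and 11.80 ± 0.10 in C13 embryos (difference -0.07, 95% CI -0.21 to 0.07, adjusted p = 0.909). The window whose cooled animals had the highest CXCR7 at D35 thus gave an interval at ED13 that ended at 0.07 on the upper side. Of the 20706 probe sets, 0.0193% passed in L13 minus C13 (0.0145% higher, 0.00483% lower), 0.00966% in H13 minus C13 and 0 in L10 minus C10, where 891 had an unadjusted p under 0.05. Against the controls of their own series, the differences of L10, H13 and L13 were 0.06, -0.06 and -0.00. The heating effect of the later window minus that of the earlier one was 0.15 for CXCR7 (SE 0.10, a description), where 0.00966% of all probe sets passed, 0.00483% in each direction. For cooling this difference was tested and was -0.11 (95% CI -0.31 to 0.08, adjusted p = 1).

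Between the heated embryos of both ages, CXCR7 was 0.25 higher in H13 than in H10 (1.19-fold). All 8 H13 embryos, which ranged only between 11.77 and 11.88, were above the H10 mean, and 0 were above the highest H10 embryo. CXCR7 passed the threshold here, as did 26.6% of all probe sets in either direction and 14.3% towards higher values, and the comparison is a description. It stayed past the threshold in all 16 fits with 1 embryo left out and under 6 of 7 other settings, but not under quantile normalization, where the difference was 0.16. C13 and C10 differed by 0.10 (95% CI -0.04 to 0.24, adjusted p = 0.320) and L13 and L10 by -0.01 (95% CI -0.15 to 0.12, adjusted p = 0.926), where 28.2% and 25% of all probe sets passed.

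**Figure D2:**
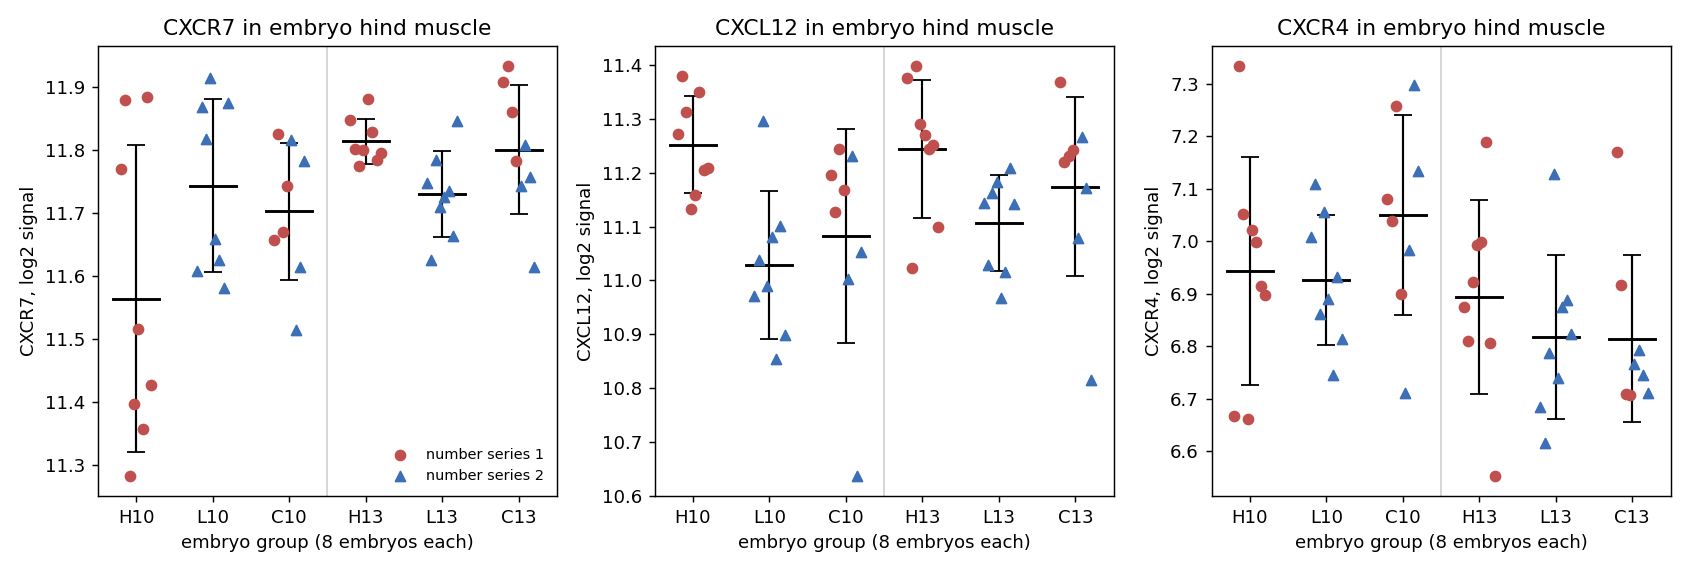
Log2 signal (y axis) of CXCR7, CXCL12 and CXCR4 in the 6 embryo groups (x axis), 8 embryos each, with the ED7–10 window left and the ED10–13 window right of the vertical line. Circles mark number series 1, triangles number series 2, and bars the mean ± SD. CXCR7 in H10 spreads from 11.28 to 11.88, and CXCL12 is mostly higher in series 1 than in series 2.

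CXCL12, the ligand, was a little higher in heated than in control embryos at ED10. It ranged between 11.13 and 11.38 in H10 (median 11.24), against 10.64 to 11.24 in C10 (median 11.15). All 8 H10 embryos were above the C10 mean and 4 were above the highest C10 embryo. The means were 11.25 ± 0.09 in H10 and 11.08 ± 0.20 in C10, a log2 difference of 0.17 (1.12-fold, 95% CI 0.03 to 0.31, unadjusted p = 0.0222, adjusted p = 0.424, limma), which did not pass the adjustment. Without C10 replicate 65, whose 10.64 was the lowest of all embryos, the difference was 0.11.

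CXCL12 in control embryos also followed the number series. Controls of series 1 exceeded those of series 2 by 0.20 at ED10 (unadjusted p = 0.0382, adjusted p = 0.705) and by 0.18 at ED13 (unadjusted p = 0.0600, adjusted p = 0.509). H10 differed by 0.07 from the C10 controls of its own series (adjusted p = 0.858). The highest group means of CXCL12 were those of H10 and H13, which both lay in series 1.

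The remaining embryo groups differed less. CXCL12 was 11.03 ± 0.14 in L10 and 11.08 ± 0.20 in C10 (difference -0.05, 95% CI -0.20 to 0.09, adjusted p = 0.961). It was 11.24 ± 0.13 in H13 and 11.17 ± 0.17 in C13 (difference 0.07, 95% CI -0.07 to 0.21, adjusted p = 0.790), and 11.11 ± 0.09 in L13 against the same C13 embryos (difference -0.07, 95% CI -0.21 to 0.08, adjusted p = 0.930). With controls of the same series the differences of L10, H13 and L13 turned to the other sign, at 0.05, -0.02 and 0.02. CXCL12 differed by 0.09 in C13 minus C10, by -0.01 in H13 minus H10 and by 0.08 in L13 minus L10 (limma adjusted p = 0.385, 0.955 and 0.499).

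At D35, the ligand overlapped between L13 and control chickens. CXCL12 ranged between 8.16 and 8.99 in L13 (median 8.55), against 8.00 to 8.81 in controls (median 8.57). Of the 8 L13 chickens, 4 were above the control mean and 1 above the highest control. The means were 8.55 ± 0.29 in L13 and 8.52 ± 0.24 in controls, a log2 difference of 0.03 (95% CI -0.36 to 0.42, adjusted p = 0.970, limma). Against the controls of series 2 it was -0.11 (adjusted p = 1).

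The other D35 groups overlapped with the controls too. The difference of CXCL12 from controls was -0.22 in L10 (95% CI -0.62 to 0.17, adjusted p = 0.884), 0.03 in H13 (95% CI -0.36 to 0.43, adjusted p = 1) and -0.18 in H10 (95% CI -0.57 to 0.22, adjusted p = 1). Against the controls of their own series L10 differed by -0.36 (adjusted p = 0.895), H13 by 0.17 and H10 by -0.04, and none passed. H13 had the widest spread, between 7.65 and 9.73 (SD 0.64). Its highest chicken, replicate 34, was also the highest of its group for CXCR7, and in L10 the same chicken was the lowest of its group for both genes. The order of the means was H13, L13, control, H10 and L10, and neighbours in it lay at most 0.18 apart, less than the SD of any group. L10 minus L13 gave -0.25 (adjusted p = 0.704) and H10 minus H13 gave -0.21 (adjusted p = 1).

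**Figure D3:**
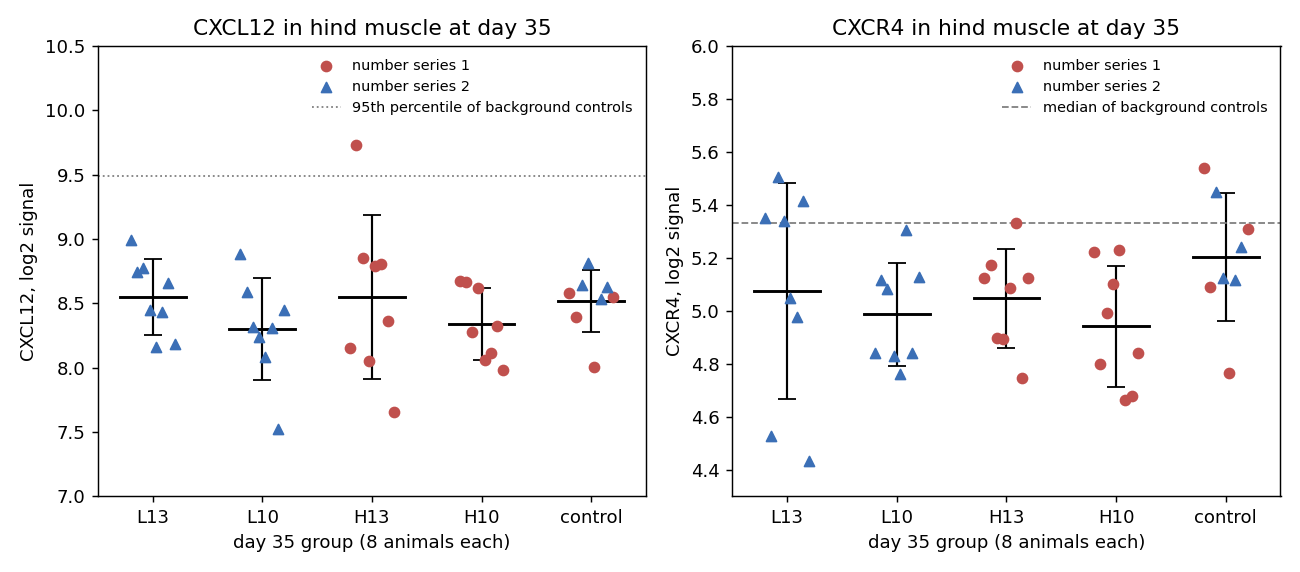
CXCL12 (left) and CXCR4 (right) log2 signal (y axes) in the 5 D35 groups (x axes), 8 chickens each; circles are number series 1, triangles number series 2, and bars the mean ± SD. The dotted line is the 95th percentile of the background control probe sets (9.49), exceeded by 1 chicken for CXCL12, and the dashed line is their median (5.33), exceeded by 6 chickens for CXCR4.

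CXCR4, the signalling receptor, was lower in control embryos at ED13 than at ED10. It ranged between 6.71 and 7.17 in C13 (median 6.75), against 6.71 to 7.30 in C10 (median 7.06). Of the 8 C13 embryos, 1 was above the C10 mean and 3 were below the lowest C10 embryo. The means were 6.81 ± 0.16 in C13 and 7.05 ± 0.19 in C10, a log2 difference of -0.24 (95% CI -0.41 to -0.06, adjusted p = 0.0378, limma). In this comparison 28.2% of all probe sets passed, and 16.4% passed towards lower values.

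This call was near the threshold. It was lost under quantile normalization (adjusted p = 0.0541), in a fit on the 2 groups alone (adjusted p = 0.0658) and in 10 of 16 fits with 1 embryo left out, with differences of -0.29 without C13 replicate 39 to -0.20 without C10 replicate 65. The embryos concerned were C10 replicates 17, 19, 65 and 70 and C13 replicates 41, 42, 87, 88, 89 and 91. Within series 1 the difference was -0.19 (adjusted p = 0.362) and within series 2 -0.28 (adjusted p = 0.120). At both ages CXCR4 lay below the 95th percentile of the background controls. Between the treated embryos, L13 minus L10 gave -0.11 (95% CI -0.29 to 0.07, adjusted p = 0.424) and H13 minus H10 gave -0.05 (95% CI -0.23 to 0.13, adjusted p = 0.741).

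The temperature groups of embryos overlapped with their controls in CXCR4. H10 had 6.94 ± 0.22 and C10 had 7.05 ± 0.19 (difference -0.11, 95% CI -0.28 to 0.07, adjusted p = 0.779), and L10 had 6.93 ± 0.12 against the same C10 embryos (difference -0.12, 95% CI -0.30 to 0.05, adjusted p = 0.951). H13 had 6.89 ± 0.18 and C13 had 6.81 ± 0.16 (difference 0.08, 95% CI -0.10 to 0.26, adjusted p = 0.812), and L13 had 6.82 ± 0.16 against the same C13 embryos (difference 0.00, 95% CI -0.17 to 0.18, adjusted p = 0.998). Against the controls of their own series the differences were -0.13 in H10, -0.10 in L10, 0.02 in H13 and 0.06 in L13.

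At D35, the control group had the highest mean of CXCR4. It was 5.07 ± 0.41 in L13, 4.99 ± 0.19 in L10, 5.05 ± 0.19 in H13 and 4.94 ± 0.23 in H10, against 5.20 ± 0.24 in controls (SD, n = 8 each). The difference was largest in H10, at -0.26 (95% CI -0.53 to 0.01, unadjusted p = 0.0544, adjusted p = 1, limma), where 2 of 8 chickens were above the control mean. It was -0.22 in L10 (adjusted p = 0.833), -0.16 in H13 (adjusted p = 1) and -0.13 in L13 (adjusted p = 0.732). Against the controls of their own series the differences were -0.23 in H10, -0.24 in L10, -0.13 in H13 and -0.16 in L13. These 4 differences share the control arrays, and most values lay at or below the background median.

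Over the 3 genes, 18 comparisons of treated with control animals were tested. None passed the threshold (limma), and 1 had an unadjusted p under 0.05, namely that of CXCL12 in H10 embryos. Of 5 tests of a difference between treatment effects, 0 passed and 0 had an unadjusted p under 0.05. Of 13 tests between ages or windows, 1 passed.

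**Figure D4:**
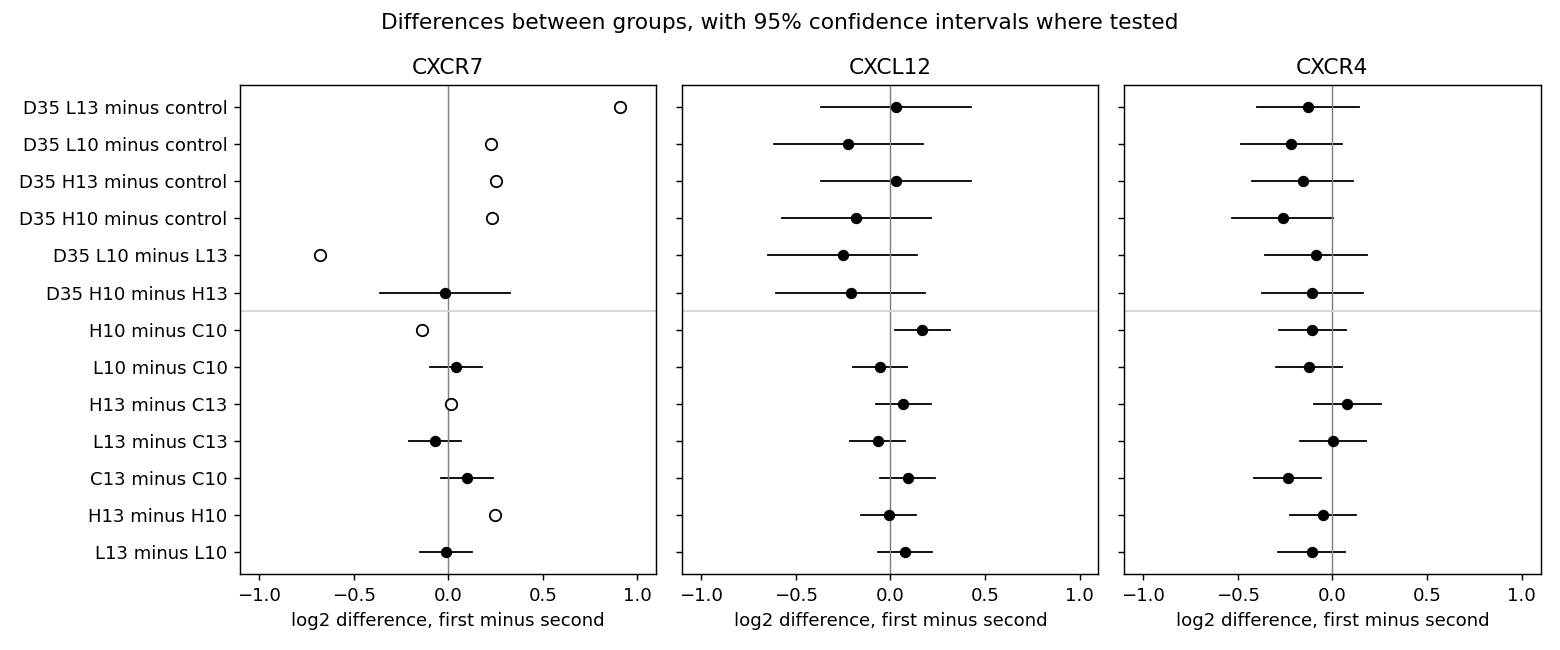
Log2 differences (x axes, first minus second group) of CXCR7, CXCL12 and CXCR4 in 13 comparisons (y axis), with D35 above and embryos below the grey line. Filled points carry 95% confidence intervals from limma, and open points are the 8 CXCR7 comparisons given without a test, of which D35 L13 minus control is the largest at 0.91.

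The 3 genes were then compared animal by animal after removal of the group means. Each mean, and each permutation, covered both number series of a control group. Differences between the control series therefore remained in these values, also in the r of a single series. At D35, CXCR7 and CXCL12 had a Pearson r = 0.36 and a Spearman coefficient of 0.24 over 40 chickens (permutation p = 0.0248 and 0.153, adjusted p = 0.103 and 0.306 over 6 relations). Without the 2 chickens farthest out in CXCR7 (control replicate 70 and the lowest L10 chicken) r was 0.25, and it was 0.26 in series 1 and 0.51 in series 2. CXCL12 and CXCR4 had r = 0.31 and a Spearman coefficient of 0.37 over the same chickens (permutation p = 0.0343 and 0.0259, adjusted p = 0.103 and 0.0776), with r = 0.32 in series 1 and 0.33 in series 2. Without the 2 chickens farthest out in CXCL12, both of H13, r was 0.37. CXCR7 and CXCR4 had r = 0.12 and a Spearman coefficient of 0.10 (permutation p = 0.453 and 0.556, adjusted p = 0.453 and 0.572), with r = 0.13 without the 2 farthest chickens, -0.12 in series 1 and 0.30 in series 2.

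In the 48 embryos, CXCR7 had r = 0.18 with CXCL12 and r = 0.15 with CXCR4 (Spearman coefficients 0.09 and 0.11, permutation p = 0.180 and 0.413 for r and 0.572 and 0.492 for the Spearman coefficients, adjusted p = 0.270 and 0.453 for r and 0.572 for both Spearman coefficients). Without the 2 embryos farthest out in CXCR7, both of H10, these r were 0.18 and 0.03, and within the series they were 0.13 and 0.18 in series 1 and 0.21 and 0.07 in series 2. CXCL12 and CXCR4 had r = 0.25 and a Spearman coefficient of 0.35 (permutation p = 0.105 and 0.0215, adjusted p = 0.209 and 0.0776), with r = 0.54 in series 1 and 0.00 in series 2, and r = 0.43 without the 2 farthest control embryos. None of the 6 relations passed after adjustment.

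**Figure D5:**
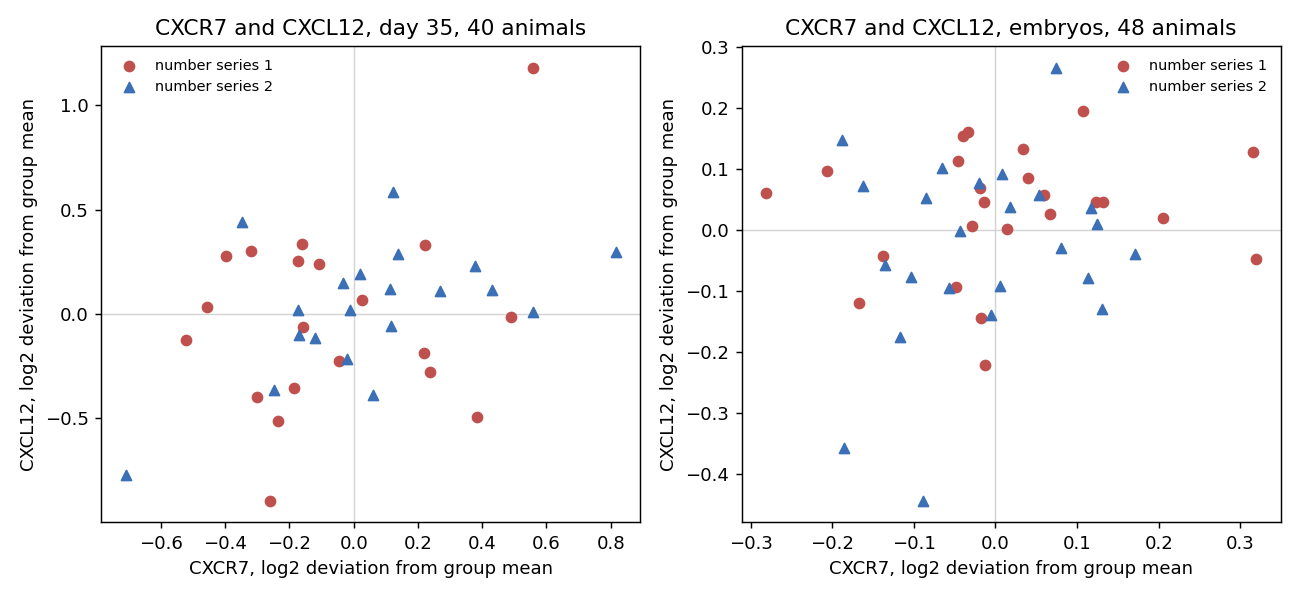
Deviation of CXCL12 (y axes) against that of CXCR7 (x axes) from the group mean on the log2 scale, for 40 D35 chickens (left) and 48 embryos (right); circles are number series 1 and triangles number series 2. The points scatter widely, with r = 0.36 at D35 and 0.18 in embryos.

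The genes whose deviations followed CXCR7 most closely were sought over 12299 other probe sets with a single symbol. At D35 they were PLXDC2, a plexin-domain transmembrane protein (r = 0.84 over 40 chickens), TNX, an extracellular matrix tenascin (0.79), NTN4L (0.79), HTRA3, a secreted serine protease (0.78), and LOC100858941 (0.78). All 5 were higher in L13 than in control chickens, by 0.60 (TNX) to 0.87 (LOC100858941) on the log2 scale, and 0 passed the threshold (limma adjusted p = 0.166 to 0.188). They were chosen for likeness to CXCR7 on these same arrays, with the controls of both series in 1 group. Their direction in L13 is therefore no separate evidence. Apart from TNX, their means in L13 and in controls lay below the 95th percentile of the background controls (9.49). The control mean of LOC100858941 (4.97) was also below the background median (5.33). All 5 were also above 0 in H13 minus control, by 0.02 (PLXDC2) to 0.43 (LOC100858941). In H10 minus control they were above 0 by 0.07 to 0.36 (the same 2 genes). In embryos the closest were SOX18, a transcription factor of endothelial cells (r = 0.71 over 48 embryos), ADCY6, an adenylyl cyclase (0.69), GUCY1A2, a subunit of soluble guanylyl cyclase (0.67), MIR1679 (0.65) and TMTC4 (0.65). Different genes led the order at each stage.

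CXCL12 was most closely followed by GGT5 (0.83) and RGL1 (0.82) at D35 and by ILF2 (0.81) and EMCN, the endothelial sialomucin endomucin (0.80), in embryos. CXCR4 had lower values, led by MRPL47 (0.59) at D35 and TRAP1 (0.63) in embryos. The signal was dim for CXCR4 at both stages and for CXCL12 at D35, and its part in these r values was not tested.

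Further genes of the pathway (41 listed, 28 measured: partners, binding proteins and signalling components) were examined in the same fits. None passed in any comparison of treated with control animals (limma), where at most 0.130% of all probe sets passed. At D35, 23 of 28 were above 0 in L13 minus control with a median of 0.08, where the median of all probe sets was 0.03. An unadjusted p under 0.05 was found for 3 of 28, and for 12.7% of all probe sets in this comparison (2626 of 20706). Of the 3, VAV2, a signalling protein with guanine nucleotide exchange activity, had 8.27 in L13 and 7.84 in controls (difference 0.42, adjusted p = 0.259), and the sialomucin CD164 had 10.86 and 10.62 (difference 0.23, adjusted p = 0.320). In both groups VAV2 lay below the 95th percentile of the background controls (9.49), and 9 of the 28 genes were above it at D35. In H10 minus control 4 of 28 were above 0 (median -0.05, all probe sets -0.02) and in H13 minus control 10 of 28 (median -0.04, all probe sets -0.01). In L10 minus control 13 of 28 were above 0 (median -0.01, all probe sets -0.04).

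Between the ages, pathway genes passed the threshold in both directions, as did many of all probe sets. Of the 28 genes, 2 rose and 5 fell in C13 compared with C10, against 11.8% and 16.4% of all probe sets. In H13 compared with H10, 6 rose and 5 fell (14.3% and 12.4% of all probe sets), and in L13 compared with L10, 3 rose and 5 fell, against 9.76% and 15.2% of all probe sets. VAV2 fell by 0.42 in C13, by 0.39 in H13 and by 0.23 in L13 (adjusted p = 1.24e-08, 1.03e-07 and 0.000486). MIF, a cytokine that also binds CXCR4, fell by 0.75 in C13 and by 0.73 in H13 (adjusted p = 6.67e-06 and 1.37e-05). PIK3CG, a catalytic subunit of phosphoinositide 3-kinase, rose by 0.50 in C13 and by 0.53 in H13 (adjusted p = 9.89e-05 and 5.25e-05). Its means (8.20 in C10, 8.70 in C13, 8.09 in H10 and 8.62 in H13) lay below the 95th percentile of the background controls in embryos (9.71). GNAI2, an inhibitory G protein subunit, fell by 0.31 in L13 compared with L10 (adjusted p = 0.000156).

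Genes of the hypoxia response, whose inducible factors are known activators of the genes for the ligand and CXCR4, had 8 of 10 members measured. At D35, 6 of 8 were above 0 in L13 minus control (median 0.23, all probe sets 0.03) and 5 had an unadjusted p under 0.05, as did 12.7% of all probe sets, but 0 passed the adjustment. VEGFA, a vessel growth factor, had 10.74 in L13 and 10.15 in controls (difference 0.59, adjusted p = 0.225), and EPAS1, a hypoxia-inducible factor, had 11.97 and 11.64 (difference 0.32, adjusted p = 0.163). In L10 minus control 6 of 8 were above 0 too (median 0.11, all probe sets -0.04). There 2 of 8 had an unadjusted p under 0.05, as did 6.3% of all probe sets, and 0 passed (limma). VEGFA differed by 0.48 in L10 minus control (adjusted p = 0.762). In H10 minus control 2 of 8 were above 0 (median -0.02, all probe sets -0.02). In H13 minus control 4 of 8 were above 0 (median 0.00, all probe sets -0.01). Both L groups at D35 lay in series 2, and these genes were compared with the controls of both series together. The part of the series in these counts was not tested. In embryos, 3 of 8 rose and 2 fell in each comparison of ED13 with ED10, where 28.2% (C13 minus C10), 26.6% (H13 minus H10) and 25% (L13 minus L10) of all probe sets passed. VEGFA rose by 0.50 in C13, by 0.74 in H13 and by 0.30 in L13 (adjusted p = 1.53e-07, 1.56e-11 and 0.000641). EGLN3, an oxygen-sensing prolyl hydroxylase, rose by 0.94 in C13, 0.75 in H13 and 0.83 in L13.

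Among other chemokines and their receptors, 27 of 43 were measured. In comparisons of treated with control animals, where at most 0.130% of all probe sets passed, none of the 27 passed. Most were dim, with 2 of 27 above the 95th percentile of the background controls at D35 and 3 of 27 in embryos. The values of ACKR4 and CX3CR1 given here lay below that limit. The largest difference at D35 was that of ACKR4, another atypical chemokine receptor, with 7.88 in L13 and 6.85 in controls (difference 1.03, unadjusted p = 0.00172, adjusted p = 0.169). In embryos, CX3CR1, the fractalkine receptor, was lower in H13 than in C13 (5.64 and 6.55, difference -0.90, adjusted p = 0.142) and in H10 than in C10 (6.54 and 7.31, difference -0.77, adjusted p = 0.208). In C13 compared with C10, 4 of 27 rose and 4 fell, near the 11.8% and 16.4% of all probe sets. CCR8L rose by 1.11 and the chemokine CCLI5 by 1.05, and CXCL14 fell by 0.58 (adjusted p = 7.41e-06, 7.14e-07 and 0.00302). CCR8L (9.07) and CCLI5 (9.01) lay below the embryo limit (9.71) in C10 and above it in C13 (10.18 and 10.07).

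Genes of muscle precursors that migrate into the limb (11 of 16 measured) and partners in vessel guidance (10 of 14 measured) had 0 members past the threshold in the comparisons of treated with control animals. In L13 minus control at D35, 8 of 11 and 6 of 10 were above 0 (medians 0.16 and 0.08, all probe sets 0.03). MYOD1, the myogenic regulator, had 10.77 in L13 and 10.36 in controls (difference 0.41, adjusted p = 0.341). In the embryo comparison H13 minus C13, PLXND1, a semaphorin receptor of endothelial cells, differed by 0.25 (adjusted p = 0.142). In C13 compared with C10, where 2 of 11 precursor genes rose and 3 fell and 1 of 10 vessel genes rose and 2 fell (11.8% and 16.4% of all probe sets), GAB1 rose by 0.36 and EYA1 by 0.47, MEOX2 fell by 0.46, NRP1 rose by 0.30 and SEMA3E fell by 0.89 (adjusted p between 9.77e-05 and 0.00127).

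Whole muscle holds many cell types, and in such tissue fewer cells of a type and less RNA per cell cannot be told apart. In L13 minus control, 11 of 12 endothelial markers were above 0 (median 0.18, all probe sets 0.03). Of the 12, 3 had an unadjusted p under 0.05, as did 12.7% of all probe sets, and 0 passed (limma). Their summed log2 level was 12.81 to 13.10 in L13 and 12.50 to 12.97 in controls, 5 of 12 lay above background, and VWF, the clotting factor carrier of endothelium, had the smallest p (difference 0.33, adjusted p = 0.155). Of 16 leukocyte markers, 12 were above 0 (median 0.16), with summed levels of 12.12 to 12.76 in L13 and 11.74 to 13.43 in controls and 1 of 16 above background. Connective tissue markers were evenly split (6 of 12 above 0, median -0.00), with summed levels of 13.26 to 14.27 in L13 and 13.56 to 14.61 in controls. Erythroid markers were above 0 for 5 of 6 (median 0.23), with summed levels of 10.07 to 10.83 in L13 and 9.42 to 10.78 in controls and 1 of 6 above background. Skeletal muscle markers were above 0 for 2 of 8 (median -0.05), with summed levels of 15.73 to 16.04 in L13 and 15.82 to 16.12 in controls, and TNNT3, a fast troponin, had the smallest p (difference -0.15, unadjusted p = 0.00058, adjusted p = 0.140). Nerve and Schwann cell markers were above 0 for 0 of 6 (median -0.15), with 0 of 6 above background. In the H groups the connective tissue markers were above 0 for 11 of 12 in both H13 and H10 minus control (medians 0.18 and 0.13). Leukocyte markers were above 0 for 2 of 16 in H13 and 1 of 16 in H10 (medians -0.11 and -0.19, all probe sets -0.01 and -0.02). Endothelial markers were above 0 for 9 of 12 and 5 of 12 (0.05 and -0.01), and skeletal muscle markers for 4 of 8 and 3 of 8 (both -0.00). In L10 minus control connective tissue markers were above 0 for 0 of 12 (median -0.19, all probe sets -0.04). There, skeletal muscle markers were above 0 for 0 of 8 (median -0.05) and nerve markers for 1 of 6 (-0.15). Leukocyte markers were above 0 for 11 of 16 (0.08), endothelial markers for 7 of 12 (0.05) and erythroid markers for 3 of 6 (0.03). None of these markers was at 0 on any array, and their part in the CXCR7 result was not tested.

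In embryos, endothelial markers were above 0 for 11 of 12 in H13 minus H10, 7 of them past the threshold towards higher values, as were 14.3% of all probe sets (median 0.39), with summed levels of 13.60 to 13.81 in H13 and 13.26 to 13.68 in H10. Skeletal muscle markers were above 0 for all 8, 5 of them past the threshold in the same direction (median 0.62). In C13 minus C10, where CXCR7 differed by 0.10, 9 of 12 endothelial and 7 of 8 muscle markers were above 0 (medians 0.25 and 0.68). Of these, 5 and 5 passed towards higher values (11.8% of all probe sets). In L13 minus L10, where CXCR7 differed by -0.01, the counts were 7 of 12 and 7 of 8 (medians 0.13 and 0.67). Of these, 2 and 6 passed towards higher values (9.76%). In both comparisons 1 endothelial marker passed towards lower values. In embryos 4 of 12 endothelial, 12 of 12 connective tissue and 2 of 12 cartilage markers lay above background. Of the connective tissue markers, 5 passed higher and 5 lower in H13 minus H10. In C13 minus C10 these were 4 and 7, and in L13 minus L10 3 and 7. Of the cartilage markers, 2 passed higher and 3 lower in H13 minus H10, and 1 and 8 in both other comparisons. Over all probe sets 12.4%, 16.4% and 15.2% passed lower in H13, C13 and L13. In H10 minus C10, where CXCR7 was lower, 4 of 12 endothelial and all 8 skeletal muscle markers were above 0 (medians -0.02 and 0.11). There 0 of 10 skin and feather markers and 0 of 12 cartilage markers were above 0 (medians -0.66 and -0.32). Of these markers 0 passed the threshold, against 0.130% of all probe sets. In H13 minus C13, where CXCR7 differed by 0.01, 0 of 10 skin and feather markers were above 0 as well (median -1.03). There 9 of 12 cartilage markers and 12 of 12 endothelial markers were above 0 (medians 0.16 and 0.10). In L10 minus C10, where CXCR7 differed by 0.04, the counts for skin and feather, cartilage and endothelium were 1 of 10, 6 of 12 and 10 of 12 (medians -0.28, 0.00 and 0.12). In L13 minus C13, where CXCR7 differed by -0.07, 4 of 12 endothelial markers were above 0 (median -0.02). The summed level of the skin and feather markers spread between 9.60 and 13.33 in H10 and between 12.01 and 13.56 in C10. The part of these markers in the values of CXCR7 was not tested.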

How the data were processed

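Whole-transcriptome arrays (Affymetrix chicken gene arrays) were made by the authors from M. gastrocnemius RNA. The deposited values are log2 signals per probe set, and the submitters' processing notes name GCOS 1.1.1; the summarization, normalization and genome build are not given in the sources used here. Both deposited tables held identical values (largest difference 0). Of these, 132 unnamed empty columns were not used, and 98 control probe sets were left out, leaving 20706 probe sets, of which 12300 had 1 gene symbol, 256 several and 8150 none.

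Embryo and D35 arrays were fitted separately with limma 3.58.1 in R 4.3.3, with a mean per group, empirical Bayes moderation and Benjamini-Hochberg adjustment over all 20706 probe sets (threshold 0.05). The study's model used slaughter weight as a covariate at D35, which is not used here. Precision rests on 8 animals per group. A background level was set by 23 background control probe sets. A probe set was compared only with itself between groups. Summed marker levels are log2 of the sum of linear signals.

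Correlations between the genes used deviations from group means and 100000 permutations within groups (Python 3.11.15, numpy 2.4.6, scipy 1.17.1). For likeness, the 5 probe sets with the highest r were named. Of each gene list, up to 3 genes past the threshold per comparison, otherwise the 2 with the smallest p, could be named. The genes, the lists and the tests were chosen with earlier results of these data known. The fits were tested on simulated data. Alternatives were quantile normalization, median centring, a filter on dim probe sets, trend and robust moderation, array weights, a fit on the 2 groups alone, the number series as a covariate, controls of the same series, the mean of 18 W-linked probe sets as a covariate for sex, and leaving out each animal.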

Additional observations from a re-analysis of the deposited data

Results flagged for a closer look

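Of 33 combinations of gene and group, each with 8 animals, 2 held an animal far from the others, with a gap to its nearest neighbour, as a share of the group's range, above Dixon's 95% critical value. Chance gives about 1 such group in 20. CXCL12 was 10.64 in C10 embryo replicate 65, (gap 0.604 of the range). CXCR4 was 7.17 in C13 embryo replicate 39, with the next embryo at 6.92 (gap 0.547 of the range). Without the first, the CXCL12 difference H10 minus C10 was 0.11, against 0.17 with it, and without the second, the CXCR4 difference C13 minus C10 was -0.29, against -0.24 with it.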

How the results depend on the processing

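Leaving out single animals kept direction and call in 580 fits, reversed the direction in 34 and lost the call in 10. For the other settings these numbers were 287, 20 and 4. The call was not counted for CXCR7 in D35 L13 minus control, H13 minus H10 and D35 L10 minus L13. There a fit was kept if its direction held and its difference moved by less than the residual SD. The other CXCR7 comparisons given without a test were counted like the tested ones. In D35 L13 minus control and in H13 minus H10, CXCR7 kept its direction. In the former it stayed past the threshold in 5 of 16 fits with 1 chicken left out and under 6 of 9 other settings. In the latter it stayed past in 16 of 16 fits with 1 embryo left out and under 6 of 7 other settings. No paired analysis was possible because the groups compared share no animal numbers in the labels. The cause of the changes was not tested. CXCR4 in C13 minus C10 kept its direction but not its call under quantile normalization (-0.23), in a fit on the 2 groups alone (-0.24) and within number series 1 (-0.19) and 2 (-0.28, both chosen after seeing the data); with 1 embryo left out it ranged between -0.29 and -0.20.

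The remaining changes were signs of differences that had not passed the threshold. With the number series as a covariate they became 0.043 for CXCL12 in L10 minus C10, -0.032 for CXCR7 and -0.027 for CXCL12 in H13 minus C13, 0.029 for CXCL12 in L13 minus C13, -0.070 for CXCR7 in D35 L10 minus control and -0.11 for CXCL12 in D35 L13 minus control. With controls of the same series these were 0.047, -0.057, -0.022, 0.024, -0.070 and -0.11. CXCL12 in D35 L13 minus control was -0.058 under quantile normalization and -0.012 with median-centred arrays. Median centring gave -0.012 for CXCR4 in L13 minus C13 and 0.0011 for CXCR7 in L13 minus L10. Array weights gave -0.0014 for CXCR4 in L13 minus C13, 0.0052 for CXCR4 and 0.034 for CXCL12 in H13 minus H10, and -0.047 for CXCL12 in D35 H13 minus control.

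With 1 animal left out, the ranges that crossed 0 were -0.138 to 0.158 and -0.0436 to 0.0855 for CXCL12 in D35 H13 and D35 L13 minus control, and -0.0302 to 0.0233 for CXCL12 and -0.0923 to 0.00556 for CXCR4 in H13 minus H10. They were -0.0408 to 0.0542 for CXCR4 in L13 minus C13, -0.0885 to 0.0614 for CXCR7 in D35 H10 minus H13, -0.0133 to 0.0321 for CXCR7 in H13 minus C13 and -0.0368 to 0.0108 for CXCR7 in L13 minus L10. The filter on dim probe sets left no value for CXCR4 and none for CXCL12 at D35. Another probe set per gene could not be tried, as each gene had 1, and the series covariate could not be fitted where both groups lay in 1 series. Signal near background limits CXCR4 at both stages and CXCL12 at D35.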
